A study of Homo sapiens with 12 samples.

Results

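OAS1, OAS2, OAS3 and OASL form the human family of 2′-5′ oligoadenylate synthetases (OAS) and their relatives. They were found by gene symbol in the deposited expression table, where they were 4 of 63086 genes, and were followed across 4 lines of MIA PaCa-2, a human pancreatic carcinoma cell line. The family was chosen with its pattern in these same libraries already known, so the levels and differences of the 4 genes are given as a description, without p-values. All 4 were among the 15987 genes tested, those whose normalised count averaged 10 or more over the libraries. None of them entered through a single high line, since the lowest line mean of any member was 13.0 (OAS2 in the CRISPR Control).

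The study edited TIMP1, which encodes a secreted inhibitor of metalloproteinases, to learn which transcripts depend on it. WT cells were left unedited. The CRISPR Control line went through the same editing and kept only a silent point mutation, and TIMP1 KO 1 and TIMP1 KO 2 are knockout clones made with guide RNAs against different places in exon 4. All 4 lines were grown in RPMI 1640 medium with serum, and the labels list no interferon, virus or other treatment. Total RNA of 3 libraries per line was sequenced, and the titles name these as biological replicates. Each knockout line is 1 clone, so what the loss of TIMP1 does and how the clones differed otherwise cannot be told apart within a line. The labels do not say whether replicates came from separate cultures, and p-values measure only the spread between these libraries.

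The OAS proteins are part of the interferon response. OAS1, OAS2 and OAS3 are enzymes that bind double-stranded RNA and then join ATP into short chains linked 2′ to 5′, called 2-5A. The chains serve as a second messenger of the antiviral state and are degraded again by phosphodiesterases. OASL keeps the fold of the family but has lost the synthetase activity. It carries ubiquitin-like repeats and acts on other nucleic acid sensors instead. Cells hold little OAS RNA at rest, and interferons raise it through transcription factors that bind the interferon-stimulated response element in the promoters.

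OAS1 (ENSG00000089127.15), OAS3 (ENSG00000111331.14) and OAS2 (ENSG00000111335.14) lie side by side on the plus strand of chromosome 12 (GRCh38, GENCODE annotation). OAS1 spans chr12:112905856-112933219, OAS3 spans chr12:112938051-112976460 and OAS2 spans chr12:112978395-113011723. OASL (ENSG00000135114.14) stands apart from this cluster on the minus strand, at chr12:121017763-121039246. A long noncoding RNA, ENSG00000257452 (chr12:112907628-113017751), runs opposite the cluster except for the first part of OAS1. The strand setting of the read counting is not given in the sources used here, but this RNA was listed at 0 in all 12 libraries. Between 0.299% and 0.945% of the 50-base stretches of the 4 members also occurred in transcripts of another gene.

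RefSeq promoter sequences (GRCh38.p14, 250 bases before to 50 after the start site) were at hand for OAS1 and OAS3. They were searched on both strands for AANNGAAA, the core that interferon regulatory factors bind, and for GAAANNGAAA, the longer core of the interferon-stimulated response element, which contains the first motif. They are shown because the family is known as an interferon target and its members moved by different amounts in these lines. Capitals mark the motif, the sequences are of the plus strand, and positions are counted from the start site. These start sites are those of the RefSeq promoters and lie inside the gene spans given above, not at their first bases. The OAS1 promoter held the short motif at positions -52 to -45 and -16 to -9.
OAS1, chr12:112906901-112906926: tgatttgcaAAAGGAAAgtgcaaaga
OAS1, chr12:112906937-112906962: cttctgaggAAACGAAAccaacagca
The OAS3 promoter held the long motif at positions -143 to -134 and -12 to -3. Both include the short motif, which also occurred at positions -147 to -140, overlapping the first of them, and is not in capitals there.
OAS3, chr12:112938322-112938349: gaaagaaacGAAACTGAAAgcagggaat
OAS3, chr12:112938453-112938480: gccgggcggGAAAACGAAAccagaaatc
Among 35116 promoters of the same 300 bases, 22.8% held the short and 3.57% the long motif. No match to the long motif was present in the OAS1 window. The second OAS1 stretch does hold GAAA repeated with a shorter gap, a spacing that this search did not cover. A match describes the letters only.

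Libraries held between 26908701 and 36093563 reads in genes. A count of 3 reads, the limit that a count of 0 allows, corresponded to between 2.49 and 3.56 normalised counts, and this covers counting error only. The normalised count is the number of reads of a gene divided by a size factor of its library. TIMP1 itself ranged from 3290 to 3837 in WT, from 2285 to 2959 in the CRISPR Control, from 1562 to 1624 in KO 1 and from 1136 to 1192 in KO 2, so the knockout libraries lay below the other libraries but kept TIMP1 RNA. The carcinoma and mesenchymal markers KRT8, KRT18, KRT19, EPCAM and VIM were at 1199 or above in every library, while CDH1 ranged from 68.6 to 1487. Marker levels differed between lines. CDH1 averaged 1189 in WT, 1424 in the CRISPR Control, 128 in KO 1 and 84.9 in KO 2. KRT19 stood at 29.2% of its WT mean in the CRISPR Control, 157% in KO 1 and 334% in KO 2. KRT8 and KRT18 were at 30.7% and 31.2% of WT in the CRISPR Control. Markers of leukocytes, myeloid cells, endothelium and fibroblasts (8 genes) summed to between 50.9 and 66.7 in WT, 58.1 and 64.8 in the CRISPR Control, 78.6 and 109 in KO 1, and 184 and 204 in KO 2. CD14 made up most of this and ranged from 31.8 to 173, whereas PTPRC, the pan-leukocyte marker, stayed at or below 7.46 and CD3E at or below 1.66. The sum moved in the same order of lines as OAS1, OAS2 and OAS3 in the knockouts, and its part in the results was not tested.

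All 4 family members were most abundant in KO 2, where OAS2 reached 340-fold and OAS1 75.3-fold their WT means, against 9.54-fold for OASL and 5.00-fold for OAS3. In KO 1 the synthetases were higher than in WT to a smaller degree, by 9.14-fold (OAS2), 8.33-fold (OAS1) and 1.56-fold (OAS3), whereas OASL was 1.95-fold lower. The CRISPR Control line lay below WT for all 4 genes, from 1.16-fold (OAS2) to 5.12-fold (OASL). In bulk RNA, fewer cells with a transcript and less of it per cell cannot be told apart.

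**Figure D1:**
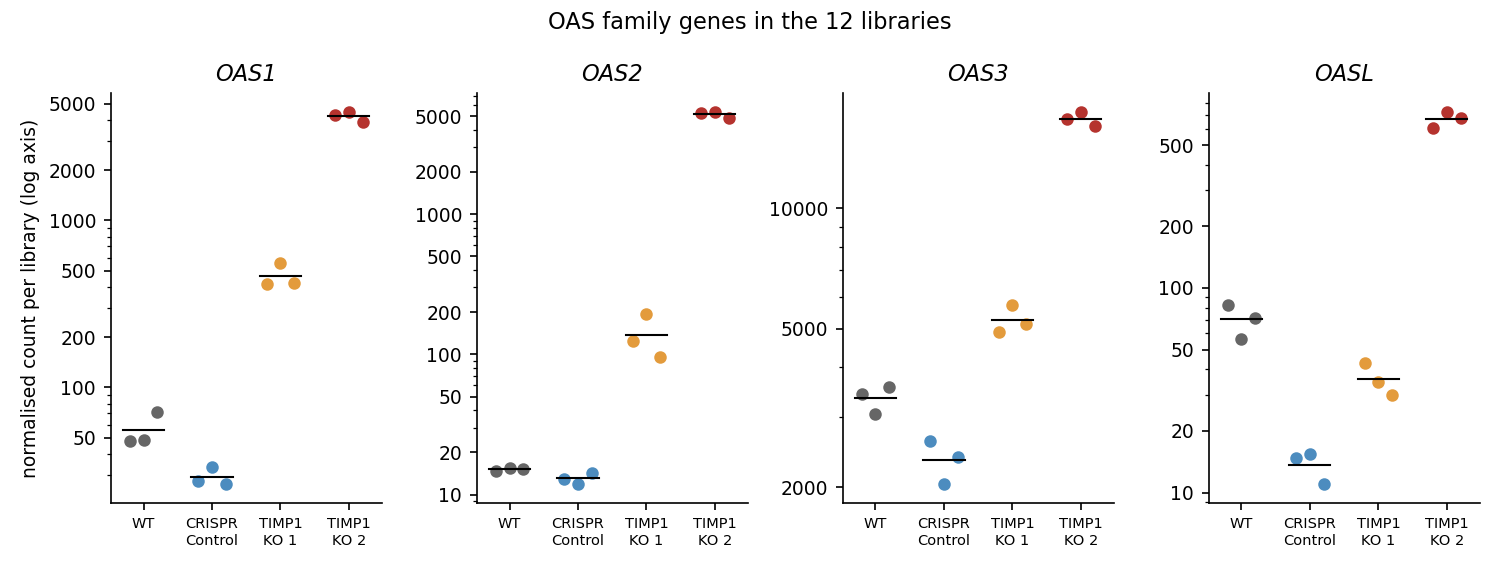
Normalised count of OAS1, OAS2, OAS3 and OASL in each library (points; horizontal bars are means of 3 libraries) by line, on a log axis with its own range in each panel. KO 2 lies above all other libraries in every panel, and OASL is the gene for which KO 1 (30.0 to 43.2) lies below WT (56.4 to 82.6).

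OAS1, the small synthetase, had 47.5, 48.2 and 71.4 normalised counts in WT replicates 1, 2 and 3, and 27.6, 33.2 and 26.4 in those of the CRISPR Control. It had 413.8, 554.7 and 424.0 in KO 1. In KO 2 it had 4263, 4453 and 3878. The ranges of the 4 lines did not touch, in the order CRISPR Control, WT, KO 1 and KO 2. The share of all tested genes whose 4 lines lie apart like this was not counted. Nothing is therefore read from the separation of lines, here or for the other members. On the log2 scale of normalised count + 1, which understates changes of low genes, OAS1 differed from WT by 3.05 (SE 0.16) in KO 1, 6.23 (SE 0.16) in KO 2 and -0.90 (SE 0.16) in the CRISPR Control. Each SE here and below comes from limma, with 1 spread per gene pooled over the 4 lines and drawn toward that of other genes. It is not the spread of the compared lines alone. OAS1 in KO 2 was 9.04-fold above KO 1.

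OAS2, the middle-sized synthetase, started from the lowest level. WT libraries had 14.7, 15.5 and 15.2 normalised counts and CRISPR Control libraries 13.0, 11.9 and 14.3, which were only 10 to 17 reads each. KO 1 libraries had 125.3, 193.5 and 96.3, and KO 2 libraries 5230, 5342 and 4886. The order of lines was the same as for OAS1 and no ranges overlapped, but the gap between CRISPR Control and WT, from 14.3 to 14.7, was small beside the counting error at this depth. Its log2 difference from WT was 3.05 (SE 0.19) in KO 1, 8.32 (SE 0.19) in KO 2 and -0.20 (SE 0.19) in the CRISPR Control. On this scale the SD within a line was 0.505 in KO 1, 0.067 in KO 2, 0.125 in the CRISPR Control and 0.034 in WT. The step from KO 1 to KO 2 was 37.2-fold, the widest among the members.

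OAS3 is the large synthetase, which is known to prefer long double-stranded RNA. It was already at 3436, 3053 and 3565 normalised counts in WT. The CRISPR Control libraries held 2615, 2038 and 2386, KO 1 held 4892, 5713 and 5128, and KO 2 held 16764, 17417 and 16076. The lines kept the order seen for OAS1, again without overlap, over a much narrower span. Log2 differences from WT were 0.65 (SE 0.09) in KO 1, 2.32 (SE 0.09) in KO 2 and -0.52 (SE 0.09) in the CRISPR Control, and KO 2 was 3.19-fold above KO 1.

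OASL, the member without synthetase activity, departed from this order. It had 82.6, 56.4 and 71.4 normalised counts in WT, 14.7, 15.4 and 10.99 in the CRISPR Control, 43.2, 34.9 and 30.0 in KO 1 and 604.7, 724.2 and 678.0 in KO 2. KO 1 therefore lay between the CRISPR Control and WT, and no neighbouring lines overlapped. Against WT, the log2 difference was -0.94 (SE 0.20) in KO 1, 3.25 (SE 0.20) in KO 2 and -2.27 (SE 0.20) in the CRISPR Control. Against the CRISPR Control, KO 1 was 2.63-fold higher (log2 difference 1.33, SE 0.20), so the sign for KO 1 turned with the reference line. KO 2 was 18.6-fold above KO 1.

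With the CRISPR Control in place of WT as the reference, the differences of the synthetases grew. OAS1 was then 15.96-fold higher in KO 1 and 144-fold in KO 2, OAS2 10.6-fold and 395-fold, and OAS3 2.24-fold and 7.14-fold. OASL was 48.8-fold higher in KO 2. These comparisons share the libraries of the knockout lines, and those against WT share the WT libraries.

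**Figure D2:**
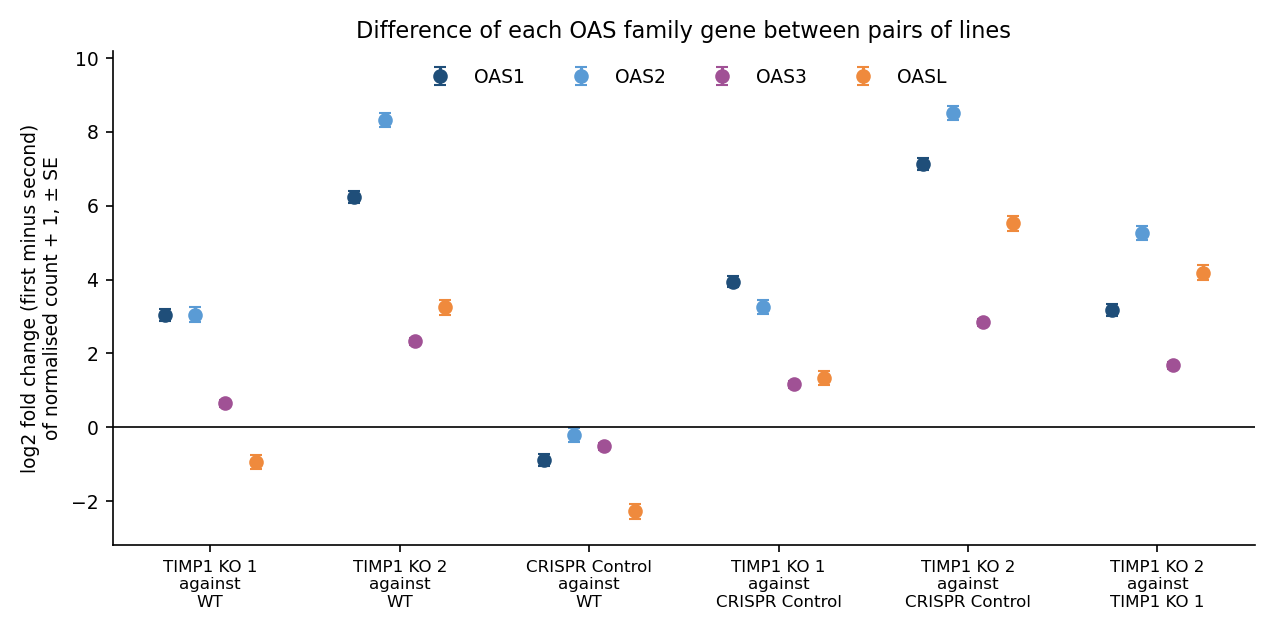
Difference of each OAS gene between the 6 pairs of lines as log2 fold change of normalised count + 1 (y axis; points with SE bars, 3 libraries per line), with pairs on the x axis. OAS2 shows the widest range, from -0.20 in the CRISPR Control against WT to 8.52 in KO 2 against the CRISPR Control, and OASL is the member below 0 in KO 1 against WT.

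The limma test across all genes (adjusted p under 0.05) put 3 members higher and 1 lower in KO 1 than in WT, where 18.0% of all tested genes were higher and 17.5% lower. In KO 2 against WT it put 4 higher and 0 lower (background 27.1% and 27.9%). For the CRISPR Control against WT these counts were 0 higher and 3 lower (27.2% and 26.3%), OAS2 being the member that did not pass. Both knockout lines had 4 members higher and 0 lower against the CRISPR Control, where 31.7% of genes were higher and 31.3% lower in KO 1, and 33.3% and 34.4% in KO 2. KO 2 against KO 1 also gave 4 higher and 0 lower (18.1% and 20.1%). Since the members were chosen on these contrasts, nothing is read from the counts. With libraries scaled to equal totals, 59.98% rather than 49.25% of the called genes were higher in KO 2 than in WT, and 65.6% rather than 47.4% in KO 2 than in KO 1. The median of all genes in KO 2 against the CRISPR Control then moved to 0.11 on the log2 scale, which is small beside every member's difference there.

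Abundance can be compared between members only per transcript length. Divided by the length of the MANE Select transcript (1.631 kb for OAS1, 4.622 kb for OAS2, 6.599 kb for OAS3 and 3.270 kb for OASL), the summed family level per kb was 567 ± 49.3 normalised counts for WT, 380 ± 42.2 for the CRISPR Control, 1120 ± 121 for KO 1 and 6432 ± 336 for KO 2 (SD, n = 3 each). OAS3 supplied 89.6% ± 0.842 of this level in WT, 93.4% ± 1.38 in the CRISPR Control and 71.1% ± 2.07 in KO 1, but 39.5% ± 0.518 in KO 2. The share of OAS1 was 5.997% ± 1.09 in WT, 4.76% ± 1.12 in the CRISPR Control, 25.3% in KO 1 and 39.99% ± 0.758 in KO 2. OAS2 made up 0.581% in WT, 0.745% in the CRISPR Control and 2.63% in KO 1, and 17.3% ± 0.185 in KO 2. OASL stayed between 0.995% (KO 1) and 3.77% (WT). KO 2 thus held a more even mixture of the 3 synthetases, while OAS3 dominated the other lines.

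The order of members in KO 2 depended on the length used. With the union of all annotated exons, an alternative chosen after seeing the data, OAS3 supplied 51.1% of the family level there, OAS2 25.3% and OAS1 17.7%, so that OAS1 fell behind both. In KO 1 the share of OAS1 was then 10.3% and that of OAS3 84.5%. The OASL share then ran from 1.62% in the CRISPR Control to 5.83% in KO 2, with 5.46% in WT. The fall in the OAS3 share from WT to KO 1 to KO 2 was present under both lengths. Which transcripts of each gene were made was not analysed here.

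The list of other genes tied to 2-5A held 4 tested genes, which were not used to choose the family. The list was still drawn up with earlier results of these libraries known. ABCE1, an ATP-binding protein that recycles ribosomes, averaged 4854 ± 498 in WT and fell by 0.25 in KO 1 (limma adjusted p 0.0394) and by 0.29 in KO 2 (limma adjusted p 0.0125) on the log2 scale. Neither call was firm. The KO 1 call was lost without any 1 of WT replicates 2 and 3 or the KO 1 libraries, and the KO 2 call without WT replicate 2, KO 2 replicate 2 or KO 2 replicate 3, and with libraries scaled to equal totals. PDE12, a phosphodiesterase that degrades 2-5A, averaged 1163 ± 63.9 in WT and fell by 0.50 in KO 1 (limma adjusted p 3.8e-05) and 0.39 in KO 2 (limma adjusted p 0.000221), with both lines below all WT libraries. Both genes went the other way in the CRISPR Control, where ABCE1 rose by 0.39 (limma adjusted p 0.00151) and PDE12 by 0.77 (limma adjusted p 8.56e-08).

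AKAP7, whose longer form can also degrade 2-5A, fell by 0.60 in KO 2 against WT (limma adjusted p 0.000854), from 224 ± 21.1 to 147 ± 7.19 normalised counts (SD, n = 3 each). Its differences of -0.09 in KO 1 (limma adjusted p 0.629) and -0.04 in the CRISPR Control (limma adjusted p 0.824) did not pass. ENPP1, a membrane phosphodiesterase that can cleave 2-5A, was 3.92-fold lower in the CRISPR Control than in WT (limma adjusted p 2.69e-13) and did not pass in KO 1 (-0.13, limma adjusted p 0.234) or KO 2 (0.19, limma adjusted p 0.0561). edgeR, DESeq2 and limma on equal totals did call ENPP1 higher in KO 2, with adjusted p from 0.00775 to 0.0414, as did limma without any 1 of the CRISPR Control libraries or KO 2 replicate 3, with adjusted p from 0.0197 to 0.0475. Of the 4 genes, 0 rose and 2 fell in KO 1 against WT, where 18.0% of all tested genes rose and 17.5% fell. In KO 2 0 rose and 3 fell (27.1% and 27.9%), and in the CRISPR Control 2 rose and 1 fell (27.2% and 26.3%). Their median differences were -0.19, -0.34 and 0.18, beside medians of 0.00, -0.01 and 0.01 over all genes.

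**Figure D3:**
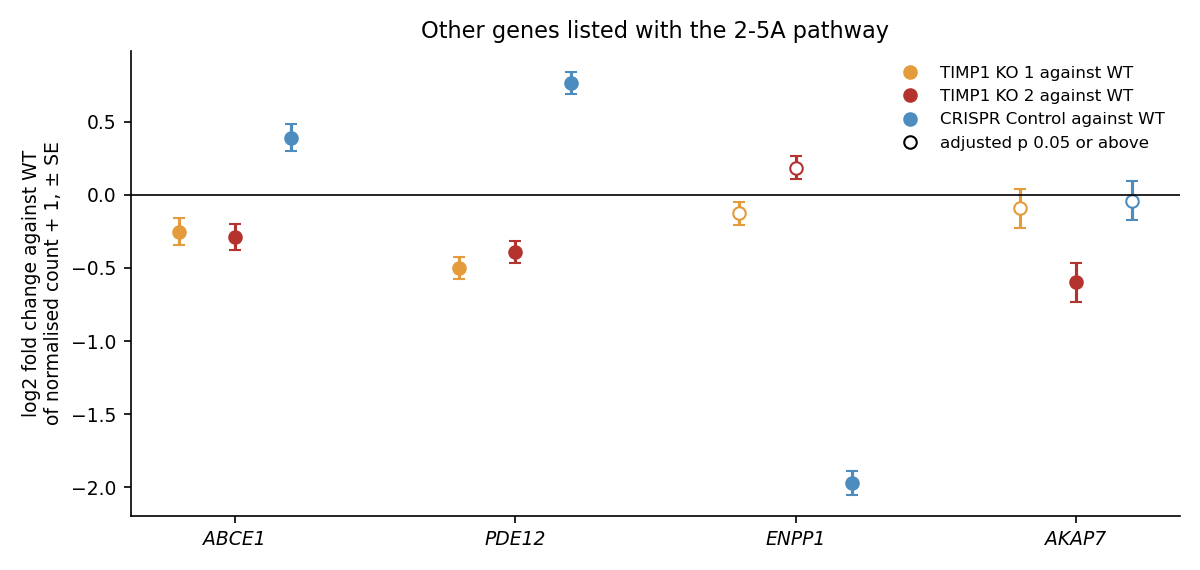
Log2 fold change of normalised count + 1 against WT (y axis, points with SE bars, 3 libraries per line) for ABCE1, PDE12, ENPP1 and AKAP7 (x axis). Filled points passed an adjusted p of 0.05 by limma, and ENPP1 in the CRISPR Control (-1.97) stands farthest from 0.

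Other human proteins share the nucleotidyltransferase fold of the OAS enzymes, among them the DNA sensor cGAS. Of the 7 tested genes of this list, 0 rose and 3 fell in KO 1 against WT (18.0% and 17.5% of all genes), 1 rose and 5 fell in KO 2 (27.1% and 27.9%), and 3 rose and 1 fell in the CRISPR Control (27.2% and 26.3%). The medians were -0.12, -0.60 and 0.03. STRBP and C2orf54 are named because they passed in KO 2 against WT with the largest changes of the list. Their passing there was fixed by that choice. STRBP, which encodes an RNA-binding protein, averaged 2240 ± 20.6 in WT (SD, n = 3) and was 1.24-fold lower in KO 1 (limma adjusted p 0.00306) and 1.57-fold lower in KO 2 (limma adjusted p 6.02e-07). C2orf54 (MAB21L4) averaged 13.8 in WT and had 3 or fewer reads in every library of both knockout lines, which puts KO 1 at least 4.46-fold and KO 2 at least 5.07-fold below WT. In the CRISPR Control the means of both genes lay above WT, at 2549 ± 187 for STRBP and 57.3 ± 15.8 for C2orf54. For C2orf54 this was 416% of the WT mean, so the reference lines differed too.

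Genes near the members on chromosome 12 were compared to see whether the difference extended along it. Within 500 kb of the OAS1-OAS3-OAS2 cluster 10 genes were tested, of which 1 was higher and 0 lower in KO 1 than in WT (18.0% and 17.5% of all genes), 3 higher and 4 lower in KO 2 (27.1% and 27.9%), and 3 higher and 5 lower in the CRISPR Control (27.2% and 26.3%). The counts in KO 2 were near these shares of all genes. Their medians were 0.01, -0.16 and -0.12, and their highest difference in KO 2 was 0.86 (DTX1, which lies 45.0 kb away). DTX1 was close to the threshold (limma adjusted p 0.0506) and passed it with edgeR, DESeq2 and without WT replicate 2 or 3 or KO 1 replicate 1 or 2. RPH3A, the nearest protein-coding gene at 7.0 kb, was too low for a test (6.36 normalised counts in WT, 12.7 in KO 1 and 7.47 in KO 2). Around OASL 12 genes were tested, with 3 higher and 0 lower in KO 1, 3 higher and 1 lower in KO 2, and 1 higher and 6 lower in the CRISPR Control. Their medians were 0.03, -0.05 and -0.19, and the shares of all genes are those given for the cluster. In the CRISPR Control, lower genes were more frequent around both loci than among all genes (26.3%), and this was not tested. The difference in KO 2 ran from -0.55 to 0.86 over the neighbours of the cluster and from -0.23 to 0.45 over those of OASL, against 2.32 to 8.32 over the OAS genes. In the other lines the ranges were not apart. In KO 1 the neighbours of the cluster ran from -0.26 to 0.53 and those of OASL from -0.15 to 0.48, beside -0.94 to 3.05 over the OAS genes. In the CRISPR Control they ran from -0.59 to 1.56 (DTX1) and from -0.91 to 0.24, beside -2.27 to -0.20.

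**Figure D4:**
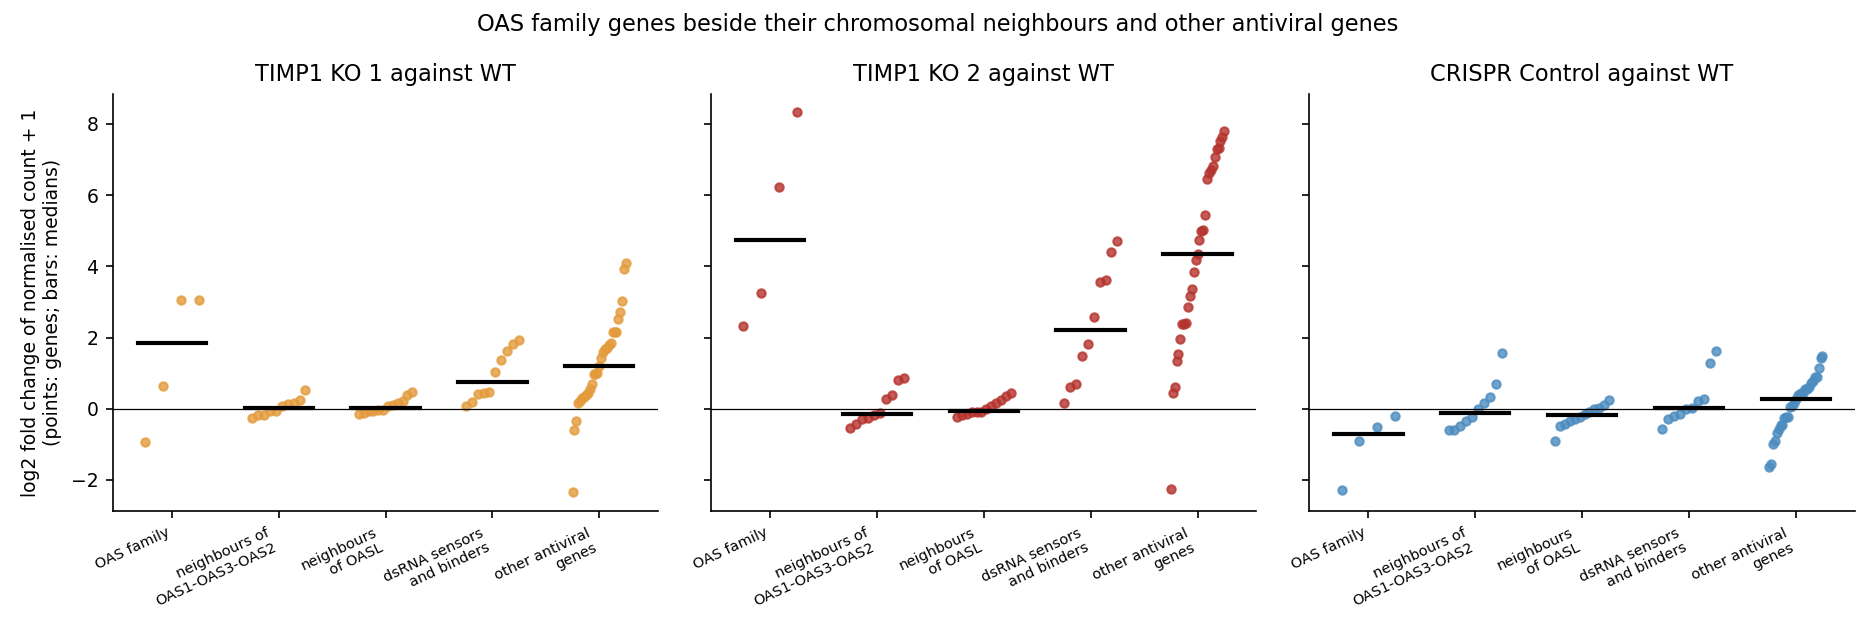
Log2 fold change of normalised count + 1 (y axis) of single genes (points) with the median of each group (bars) for KO 1, KO 2 and the CRISPR Control against WT. The OAS family has a median of 4.74 in KO 2, the neighbours of the cluster -0.16 and other interferon-induced antiviral genes 4.35 (3.36 without the 6 that passed the filter only through KO 2).

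Genes of the wider interferon response were listed by role and overlap with results already known for these libraries, so their counts are a description of where the family stood. All 3 KO 2 libraries lay above all 9 others in 4 of 4 members, in 45 of the 58 tested response genes (77.6%) and in 13.2% of all tested genes. Of the 58 genes, 8 reached the mean of 10 only through KO 2 and so had to be high there. Among the 50 that averaged 10 or more over the 9 other libraries too, a limit set after seeing the data, the share was 74.0%, against 12.4% of all genes held to it. Of double-stranded RNA sensors and binders, 7 of 10 rose and 0 fell in KO 1 against WT (18.0% and 17.5% of all tested genes). For KO 2, 10 rose and 0 fell (27.1% and 27.9%), and for the CRISPR Control 3 rose and 1 fell (27.2% and 26.3%). The medians of these sensors and binders were 0.75, 2.20 and 0.01. For the 8 sensors and binders that met the limit without KO 2, 6 rose in KO 1 and 8 in KO 2, with medians of 0.46 and 1.65. IFIH1, which encodes the sensor MDA5, was 3.85-fold higher in KO 1 (limma adjusted p 2.54e-11) and 21.2-fold in KO 2 (limma adjusted p 1.44e-16). It was also 2.44-fold higher in the CRISPR Control (limma adjusted p 4.11e-09), the line in which all OAS means lay below those of WT. TLR3, the endosomal sensor, had at most 3 reads per library in WT against 58.3 ± 7.21 normalised counts in KO 2, a difference of at least 19.5-fold. TLR3 entered the tests only through KO 2.

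Among 19 interferon receptor and signalling genes, 8 rose and 0 fell in KO 1 against WT (18.0% and 17.5% of all tested genes). For KO 2, 11 rose and 1 fell (27.1% and 27.9%), and for the CRISPR Control 7 rose and 9 fell (27.2% and 26.3%). The medians of these genes were 0.18, 0.65 and -0.17. IRF7, a transcription factor that amplifies the response, was 2.50-fold higher in KO 1 (limma adjusted p 1.3e-08) and 4.92-fold in KO 2 (limma adjusted p 2.37e-12). USP18, which dampens receptor signalling, was 3.19-fold and 14.4-fold higher (limma adjusted p 4.52e-10 and 1.57e-15). IRF7 and USP18, like IFIH1 and TLR3 above, were picked for passing in KO 2 against WT, so nothing is read from their passing there. Beside the same shares of all tested genes, 24 of 29 other antiviral genes rose and 1 fell in KO 1. In KO 2, 28 of these antiviral genes rose and 1 fell, and in the CRISPR Control 12 rose and 8 fell. Their medians of 1.21 and 4.35 in the knockout lines lie beside the family's 1.85 and 4.74, and their 0.27 in the CRISPR Control beside the family's -0.71. For the 23 that met the limit without KO 2, 20 rose and 1 fell in KO 1 and 22 rose and 1 fell in KO 2, with medians of 1.006 and 3.36. RSAD2 (viperin) had 5, 1 and 2 reads in WT, 4, 3 and 2 in the CRISPR Control, 12, 9 and 10 in KO 1 and 902, 819 and 747 in KO 2. It entered the tests only through KO 2, and with so few WT reads no fold is given.

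Interferon genes themselves were scarce. Of 21 ligands, 12 were at 0 in all libraries and 16 had at most 3 reads in every library. IFNL1, a type III interferon, had 2.26, 0 and 0 normalised counts in WT, 0.864, 7.12 and 1.10 in the CRISPR Control, 16.2, 6.75 and 5.30 in KO 1. The KO 2 libraries had 122.6, 160.5 and 130.2. The level in KO 2 was at least 46.0-fold that in WT, and in KO 1 at least 3.15-fold, reckoned against a floor of 3 reads per library. For IFNL2 and IFNL3 the same bounds for KO 2 were 29.4-fold and 31.7-fold, but 37.8% and 37.0% of their 50-base stretches occur in another gene, so reads could be split between them. These 3 ligands entered the tests only through KO 2, and no count of them is read as support. IFNB1 had 15, 20 and 6 reads in the KO 2 libraries, 0, 0 and 1 in KO 1 and 0 in the other lines, which is too low for a test and puts KO 2 at least 4.01-fold above WT.

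Each member's profile over the 12 libraries (log2 of normalised count + 1, minus the WT mean) was set beside those of all tested genes by the root mean square difference. OAS2 lay nearest to MX1 (0.73), XAF1 (0.75) and IFI6 (0.85). OAS3, the member with the narrowest span, had the smallest differences, with BTN3A2 at 0.21, MAP7 at 0.22 and IL31RA at 0.24. This measure grows with the span of a profile, so members are not ranked by it. OAS1 lay nearest to AL445490.1 (0.58), SLN (0.67) and TSPAN8 (0.81), of which AL445490.1 and TSPAN8 averaged under 1 normalised count in WT. For OASL the nearest were TRHDE-AS1 (0.64), DHRS9 (0.72) and SLC14A1 (0.73). XAF1, AL445490.1, TSPAN8 and TRHDE-AS1 averaged under 10 over the libraries outside KO 2. They entered the tests only through KO 2 and so had to be high there, and nothing is read from their likeness. DHRS9 averaged 45.6 in WT, 16.8 in the CRISPR Control, 35.7 in KO 1 and 652 in KO 2, but unlike those of OASL its KO 1 and WT libraries overlapped (log2 difference -0.36, limma adjusted p 0.245). Within the family the difference was smallest between OAS1 and OAS2 (1.12) and largest between OAS2 and OASL (3.40), with the same limit.

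The spread between libraries of a line was widest for OAS2 in KO 1. Its coefficient of variation was 36.1% there, against 2.52% in WT, 9.32% in the CRISPR Control and 4.61% in KO 2. Replicate 2 was the highest KO 1 library for OAS1, OAS2 and OAS3, at 1.32, 1.75 and 1.14 times the mean of the other 2, but not for OASL, at 0.952 times. That library was also the highest of KO 1 for 35 of the 58 interferon response genes (60.3%) and for 32.6% of all tested genes, a pattern noticed after the values were seen. Without it KO 1 still lay above WT for OAS1, OAS2 and OAS3, since the other KO 1 libraries had at least 413.8, 96.3 and 4892 normalised counts. OAS1 and OASL varied more in WT (24.4% and 18.8%) than in KO 1 (16.9% and 18.5%), and OAS3 more in the CRISPR Control (12.4%) than in KO 1 (8.06%). In KO 2 the coefficient of variation of the members was between 4.00% and 9.01%. Replicate 2 was the highest KO 2 library for 4 of 4 members, also noticed after the values were seen. It was the highest for 13 of the 58 response genes (22.4%) and for 27.1% of all tested genes.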

How the data were processed

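RNA of MIA PaCa-2 cells was measured in 12 libraries. Per the labels and the study's methods, the authors trimmed adapters (Cutadapt), mapped reads to GRCh38 (STAR), counted them per gene (featureCounts) and scaled the counts with DESeq2. The deposited values are therefore a signal, read counts divided by a size factor per library, here called normalised counts. This scaling sets the typical gene equal between libraries and would remove a shift shared by most genes. Strand setting and annotation release are not given in the sources used here.

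Within each library, values were whole multiples of 1 step. Division by it gave whole reads for 100% of positive values (tolerance 0.01 reads), and these reads gave depth and the floor of 3 reads. The 4 columns of line means and 1 blank line were left out. Coordinates come from the GENCODE annotation of GRCh38, which held 97.6% of the deposited identifiers with their version.

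Groups and replicate numbers came from sample titles. limma 3.58.1 (R 4.3.3) was run on log2(normalised count + 1) of the 15987 genes (99.9% of reads), with a mean for each of the 4 lines, eBayes with a trend, two-sided tests and Benjamini-Hochberg adjustment over all of these genes, at a threshold of 0.05. It was tested on simulated data. Alternatives were pseudocounts of 0.5 and 10, no filter or a minimum mean of 50, equal library totals, edgeR 4.0.16 and DESeq2 1.42.0 on the recovered reads, a block for the replicate number, and omission of each library. After the data were seen, response genes were also counted without those that met the minimum mean only through KO 2.

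The members and all gene lists were chosen with earlier results of these data known. Named genes are the members, TIMP1, the 2-5A list, up to 2 genes of each other list with the largest change past the threshold in KO 2 against WT, the 3 genes nearest in profile to each member, and genes within 500 kb. Some listed genes and neighbours, and 1 planned result, are not reported here. RPH3A, IFNL2, IFNB1 and the cell markers were named in addition. IFNB1 and the replicate patterns of KO 1 and KO 2 were singled out after their values were seen.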

Additional observations from a re-analysis of the deposited data

How the results depend on the processing

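Of 480 recomputed log2 differences of the 4 OAS genes, 0 changed sign and 467 stayed within 1 SD of the replicates. The other 13 moved further, 10 of them with a pseudocount of 10, which lowers changes of low genes and took OAS2 in KO 2 against WT from 8.32 to 7.68 and OASL in the CRISPR Control against WT from -2.27 to -1.75. Without any 1 library, OAS1 in KO 1 against WT ran from 2.91 to 3.24, OAS2 from 2.78 to 3.28, OAS3 from 0.58 to 0.69 and OASL from -1.09 to -0.81. Of 366 recounts of calls, 360 were within 1.5 times the original. The exception was the 2-5A list in KO 1 against WT, with 2 calls, which fell to 1 with no filter on low values (more genes tested) and ran from 1 to 2 without single libraries, as ABCE1 lost its call.

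Lines share replicate numbers, but same-numbered libraries did not deviate together (r from -0.129 to 0.16, over 0.1 in 2 of 18 pairs), and a library matched its own number best in 11 of 36 cases. A replicate block moved the calls of KO 1 against WT from 5682 to 5602, of KO 2 against WT from 8791 to 8714 and of KO 2 against KO 1 from 6100 to 5975. For OAS2 in the WT and CRISPR Control lines, depth of 10 to 17 reads limits what can be told.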
